A study of Mus musculus with 8 samples.

Results

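Pbld1, carried on the arrays under its older name 0610038K03Rik, was represented by 4 probes that the array annotation places in its promoter on chromosome 10. All probes with exactly that gene name were taken, 4 of 83122 in the series, and because they lie close together they form 1 of 17617 regions. The gene was selected on its low P21 over E17.5 signal ratio in these same arrays, so that ratio is described here and not tested. The series compared DNA from C57BL6/J mouse liver at embryonic day 17.5 (E17.5) with that at postnatal day 21 (P21), the time of weaning, each in 2 biological replicates. E17.5 DNA carried the dye Cy3 and P21 DNA carried Cy5, and both ages of a replicate were hybridised to the same array. The 4 Pbld1 probes sit on the second of 2 array designs, so every Pbld1 value rests on 2 arrays, whose number limits the precision. Dyes were not swapped on the arrays analysed here, and age and dye cannot be told apart. Day 0.5 was the morning of the vaginal plug. Fetal livers came from dams killed on day 17.5, and the weaning livers from pups just taken from their dams. The labels do not say whether a replicate was 1 animal or a pool, or of which sex. The replicate 2 array stood apart on the X chromosome, where 13.4% of 1858 tested probes were at least 2-fold lower at P21, against 1.40% on replicate 1. On the autosomes the shares were 3.67% and 2.13%. Pbld1 is autosomal, and its ratio is given for each array.

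Pbld1 encodes a protein of the phenazine biosynthesis-like (PhzF) family. Its human counterpart was first described as a partner of MAWD, the protein now called STRAP, which acts on TGF-beta receptor signalling, and it has been studied as a restraint on growth in liver cells. The mouse has a close relative of the gene, Pbld2, next to it on chromosome 10. The assay, MCAM, joins methylated CpG island amplification to a microarray. The enzyme SmaI cuts CCCGGG only where the CpG is unmethylated, its partner XmaI then cuts the methylated sites that remain, and adaptors on those ends let fragments between nearby methylated sites be amplified. A brighter probe therefore marks a fragment with more methylated ends, and a fragment is read only if it is short enough to amplify. The fetal liver is also a site of blood formation, which it ceases to be after birth. In bulk DNA, a change in the mix of cells and a change within one kind of cell cannot be told apart.

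The promoter sequences of Pbld1 and Pbld2 are shown because the enzymes read this motif. They come from the RefSeq table for GRCm38.p6, which gives 250 bases before and 50 bases after each annotated start, and lists a pair of starts for Pbld1. Capitals mark CCCGGG, a motif of 6 bases that reads the same on both strands.
Pbld1 first start, chr10:63060463-63060762, plus strand: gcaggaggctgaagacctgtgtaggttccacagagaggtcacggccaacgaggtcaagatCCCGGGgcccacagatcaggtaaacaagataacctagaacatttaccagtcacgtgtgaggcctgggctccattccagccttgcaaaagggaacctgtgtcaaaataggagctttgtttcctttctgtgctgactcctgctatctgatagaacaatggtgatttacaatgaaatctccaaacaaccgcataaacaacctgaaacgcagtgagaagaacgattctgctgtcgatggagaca
Pbld1 second start, chr10:63061339-63061638, plus strand: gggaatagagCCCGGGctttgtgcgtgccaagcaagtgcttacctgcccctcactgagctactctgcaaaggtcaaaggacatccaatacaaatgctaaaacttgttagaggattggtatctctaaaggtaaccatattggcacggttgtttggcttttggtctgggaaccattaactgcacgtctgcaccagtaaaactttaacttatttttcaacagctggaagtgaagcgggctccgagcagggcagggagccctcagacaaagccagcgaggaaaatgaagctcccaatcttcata
Pbld2, chr10:63024262-63024561, plus strand: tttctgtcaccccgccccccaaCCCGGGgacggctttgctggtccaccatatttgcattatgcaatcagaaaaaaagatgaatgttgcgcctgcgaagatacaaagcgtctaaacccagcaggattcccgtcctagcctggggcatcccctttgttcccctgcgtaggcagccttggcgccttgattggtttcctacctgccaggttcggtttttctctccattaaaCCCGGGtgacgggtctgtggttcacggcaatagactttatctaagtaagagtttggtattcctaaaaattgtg

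Each Pbld1 window held 1 CCCGGG, at position -190 from the first start and -240 from the second. Their first bases lie 826 bp apart in GRCm38.p6, with 576 bp between the windows that the table does not hold. The Pbld2 window held 2, at -228 and -23, which are 205 bp apart. Of the 32851 windows in the table, 13.5% held at least 1 CCCGGG and 2.53% held at least 2. The Pbld1 windows had 8 and 7 CpG and 48.3% and 48.0% GC, against 13 CpG and 50.7% GC for Pbld2 and medians of 7 CpG and 52.7% GC over all windows. The headers and labels name no genome build for the array coordinates, and it is not GRCm38.p6. Read on GRCm38.p6, the same coordinates would fall inside Pbld2, so the probes cannot be set against the motif positions. The assignment to Pbld1 is that of the array annotation. The order of the probes along the chromosome, Rufy2, Pbld2, Pbld1, Atoh7, is the order of these genes in RefSeq.

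Along the chromosome the 4 probes run from 63026860 to 63027721 in the coordinates of the array, a span of 862 bp with gaps of 136 to 245 bp between neighbours. In each of them E17.5 was brighter than P21 on both arrays. Signals below are the deposited processed intensities in arbitrary units, with the error that the scanner software gave each spot, and brightness is not compared between probes, which differ in sequence. At the first probe (63026860 to 63026918) E17.5 read 302940 ± 30294 on replicate 1 and 305897 ± 30589.8 on replicate 2, and P21 read 65895 ± 6589.9 and 63180.4 ± 6318. At the second (63027055 to 63027115) E17.5 read 191890 ± 19189 and 226390 ± 22639, and P21 read 37061 ± 3707 and 39304 ± 3931. At the third (63027361 to 63027421) E17.5 read 126482 ± 12649 and 98994 ± 9899.7, and P21 read 26855 ± 2687 and 19904 ± 1991. At these 3 probes the lower E17.5 reading exceeded the higher P21 reading by 4.60-fold, 4.88-fold and 3.69-fold. Between replicates of one age the same probes differed far less, with replicate 2 at 0.783 to 1.18 times replicate 1 in E17.5 and 0.741 to 1.06 times in P21. All 12 of these readings were well above background and none was saturated. The replicate 1 reading of E17.5 at the first probe was taken from a second scan at lower gain and scaled up.

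The fourth probe (63027661 to 63027721) was faint at both ages. E17.5 read 1434 ± 168 and 359 ± 100.2 there, and P21 read 144 ± 69.1 and 51.5 ± 51.9. Both E17.5 readings were well above background. The P21 reading was so on replicate 1 only, and on replicate 2 it was a value substituted by the software for a spot at background. The E17.5 readings themselves differed between replicates, with replicate 2 at 0.251 times replicate 1, but the lower of them was still 2.50-fold above the higher P21 reading. The processed signals at the 4 probes thus separated by age without overlap. Before background subtraction and scaling of the dyes, the fourth probe's mean signals did overlap. They were 222 and 110 in E17.5, over backgrounds of 43 and 44, and 139 and 104 at P21, over backgrounds of 78 and 79.

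**Figure D1:**
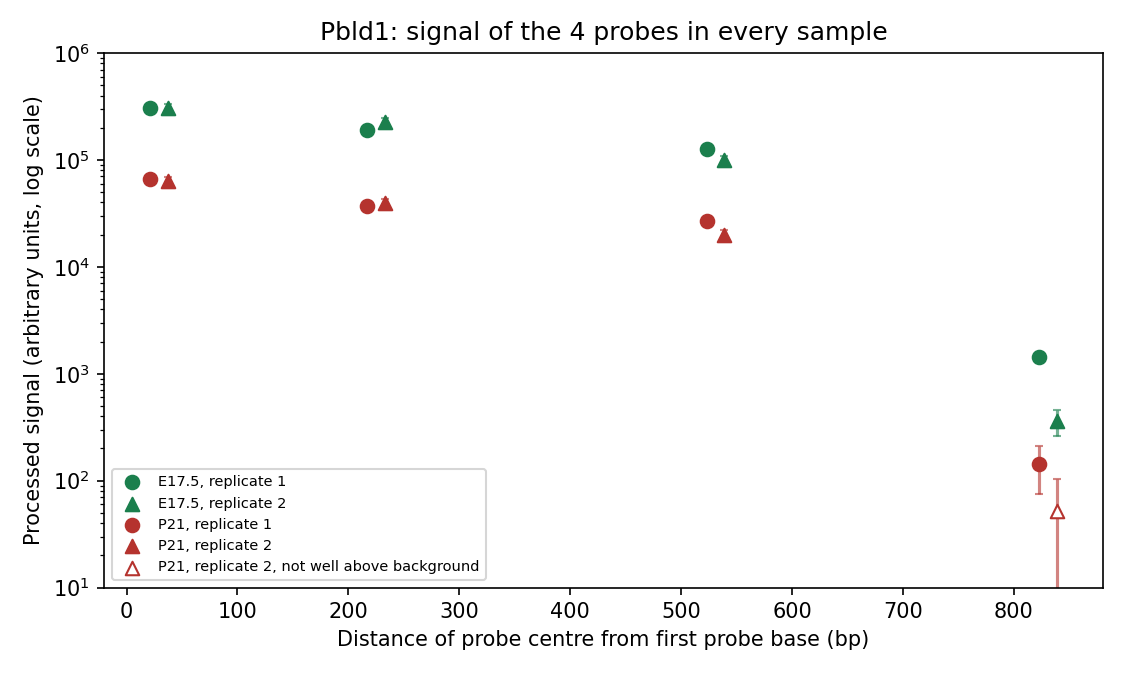
Processed signal (log scale) of the 4 Pbld1 probes against the distance of each probe's centre from the first probe base, for both ages and both replicates, set slightly apart; error bars are the software's spot errors, and 1 bar reaches below 0 and is drawn to the edge of the plot. The E17.5 points lie above the P21 points at all 4 probes, and the fourth probe is faint, with 1 P21 reading (open symbol) not well above background.

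The log2 ratios of P21 over E17.5, centred on the median of each array, were -2.21 and -2.30 at the first probe, -2.39 and -2.55 at the second, -2.25 and -2.34 at the third and -3.33 and -2.83 at the fourth, on replicates 1 and 2. The first 3 probes differed little from each other, with an SD over probes of 0.091 and 0.13 on the 2 arrays, and the fourth, where P21 was near background, had the lowest ratio on both. Over the 4 probes the region averaged -2.54 and -2.50, a mean of -2.52 ± 0.03 (SD, n = 2), or 5.75-fold less signal at P21. This small SD comes in part from opposite shifts between the arrays. The 3 bright probes averaged -2.28 and -2.40, while the fourth, with a substituted P21 value on replicate 2, rose from -3.33 to -2.83. Over the 3 bright probes alone the mean was -2.34 ± 0.08 (SD, n = 2), or 5.06-fold less. P21 nevertheless kept a signal well above background at the 3 bright probes on both arrays.

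All 4 probes were more than 4-fold lower at P21 on both arrays, and 0.0622% of the 59516 tested probes were at least that much lower. At least 2-fold lower on both arrays were 0.684% of probes and 0.295% of the 17617 regions. These ratios chose the gene, so the shares only place it on the scale of the arrays. Pbld1 was the only region, autosomal or not, with a log2 ratio of -2 or below on both arrays. By its mean ratio it stood lowest of 13713 autosomal regions with at least 2 tested probes and at rank 7 from the bottom of all regions. Among 116 other autosomal probes with a mean signal inside the range of the 3 bright Pbld1 probes, the median log2 ratio was 0.18 on replicate 1 and 0.25 on replicate 2. Of those probes 2 (1.72%) were at least 2-fold lower at P21 on both arrays, and 0 were at least 4-fold lower. The part of brightness and dye in the Pbld1 ratio was not tested.

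The Pbld1 ratio was also read before scaling and under other corrections. Per the file headers the linear dye factors were 12.3 for Cy3 and 5.24 for Cy5 on replicate 1 and 16.3 and 6.97 on replicate 2, which moves every log2 ratio on an array alike, by -1.23 and -1.22. Without these factors and without centring, the background-subtracted mean signals gave -1.20 and -1.24 for the 4 probes, a mean of -1.22 ± 0.03, and -1.13 ± 0.08 for the 3 bright ones. These values show that E17.5 was brighter before any scaling, and say nothing of Pbld1 relative to the other regions. The background is also subtracted otherwise than in the processed signals, so dim probes need not shift with Pbld1. On replicate 1 the first Pbld1 probe went from -2.21 to -0.997, and an Atoh7 probe from -0.071 to -0.057. Another background correction (normexp, which models the background as noise under an exponential signal) with median centring gave -1.57 ± 0.25, and with loess, which also removes a trend of the ratio with brightness, -2.19 ± 0.22 (SD, n = 2 throughout). The ratio was below 0 in each of the 18 settings tried, from -2.64 to -1.002.

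**Figure D2:**
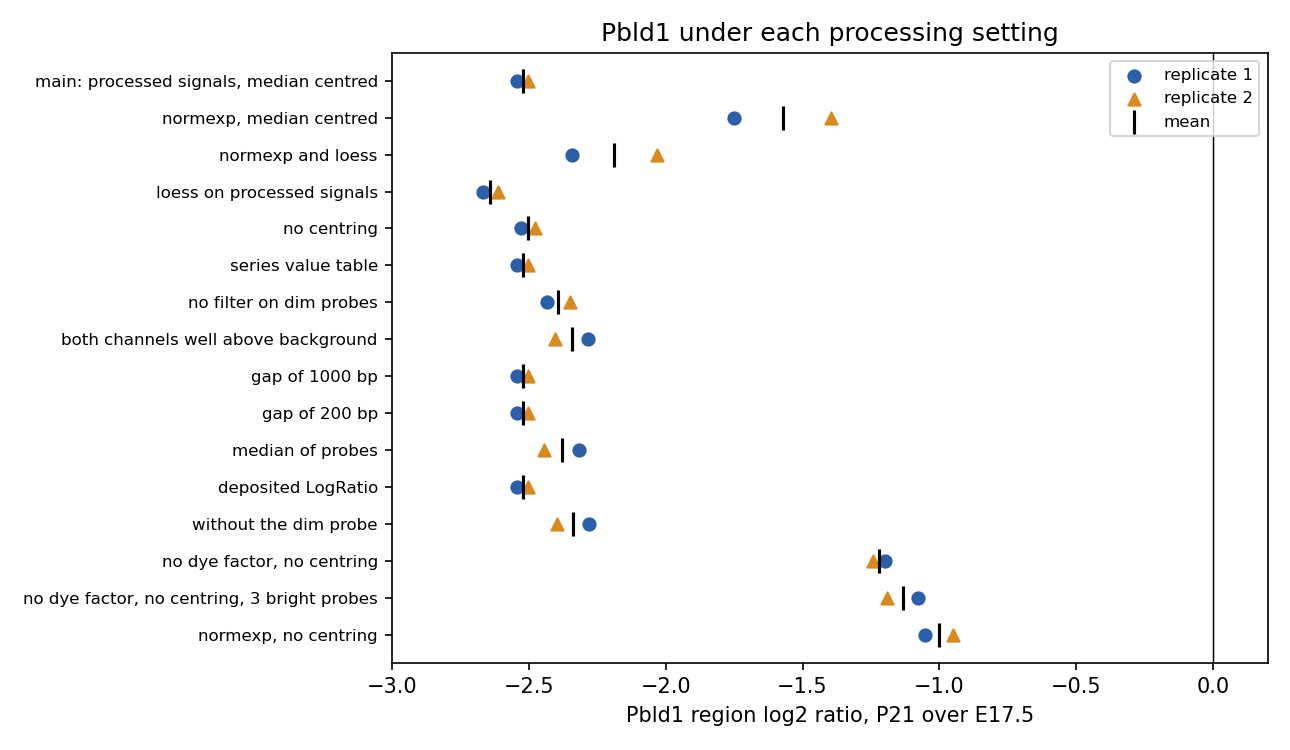
Log2 ratio of P21 over E17.5 for the Pbld1 region under each processing setting with values for both arrays, with the mean as a bar. Every point lies below 0. The settings without the dye factors or without centring after normexp lie nearest to 0, at means of -1.22, -1.13 and -1.002. They do not scale the dyes to each other.

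The neighbouring genes were read to place the low ratio along the chromosome. Within 100 kb of the outermost Pbld1 probes the array held 20 other probes, of which 16 passed the filter on dim probes, in 5 regions. limma called 0 of the 5 regions at an adjusted p under 0.05 with a 2-fold minimum, and 0 of 17617 overall (0%). At an unadjusted p under 0.05 there was 1 of the 5, and 2077 (11.8%) overall. The nearest region on one side was Pbld2, the relative of Pbld1, whose array name is 3110049J23Rik, 35870 bp away at 62989943 to 62990990. On replicate 1 its 4 tested probes averaged -0.10 and on replicate 2 they averaged 0.38, a mean of 0.14 ± 0.34 (SD, n = 2; limma adjusted p = 0.706). The remaining Pbld2 probe was not well above background in any sample. The signals of the first Pbld2 probe overlapped between the ages. There, E17.5 read 1735 and 1063 and P21 read 1724 and 1605.

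On the other side lay Atoh7, a basic helix-loop-helix factor of retinal ganglion cell development, 37801 bp away. Its 6 tested probes averaged -0.17 on replicate 1 and 0.03 on replicate 2, a mean of -0.07 ± 0.14 (SD, n = 2; limma adjusted p = 0.734). Rufy2, which encodes an endosomal protein with RUN and FYVE domains and lies 77876 bp away, stood at -0.13 and 0.47 over 2 tested probes, a mean of 0.17 ± 0.43 (SD, n = 2; limma adjusted p = 0.702). The sign of Rufy2 turned with the processing, and it stood at -0.26 with normexp (limma adjusted p = 0.0374). Beyond Atoh7 a pair of regions without a gene name, 62651 and 63379 bp away, averaged -0.22 ± 0.26 and -0.44 ± 0.28 over 2 tested probes each (SD, n = 2; limma adjusted p = 0.530 and 0.419). The latter is the region with an unadjusted p under 0.05, and it was lower on both arrays, at -0.24 and -0.64. With normexp it stood at -0.28 (limma adjusted p = 0.0366), short of the 2-fold minimum. The share of all regions with an adjusted p under 0.05 with normexp is not given here. No excess among the neighbours is therefore read from these p-values. None of the 5 region means reached 2-fold on either array, so at the spacing of these probes the low ratio was measured only at Pbld1. The neighbouring probes read at most 2209 in E17.5 (an Atoh7 probe on replicate 2), far below the 3 bright Pbld1 probes. A fall could still be read at such signals. The fourth Pbld1 probe, at 1434 in E17.5 on replicate 1, had a log2 ratio of -3.33 there. Neighbouring probes brighter than that in E17.5 on the same array, in Pbld2, Atoh7 and an unnamed region, had log2 ratios of -0.15 to 0.17. Fainter probes left less room, down to an Atoh7 probe not well above background in E17.5 on either array. A ratio near 0 at the neighbours does not establish stable methylation, which was not tested. Hnrnph3, an RNA-binding protein gene between Rufy2 and Pbld2 in RefSeq, had no probe under its own name in this window.

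**Figure D3:**
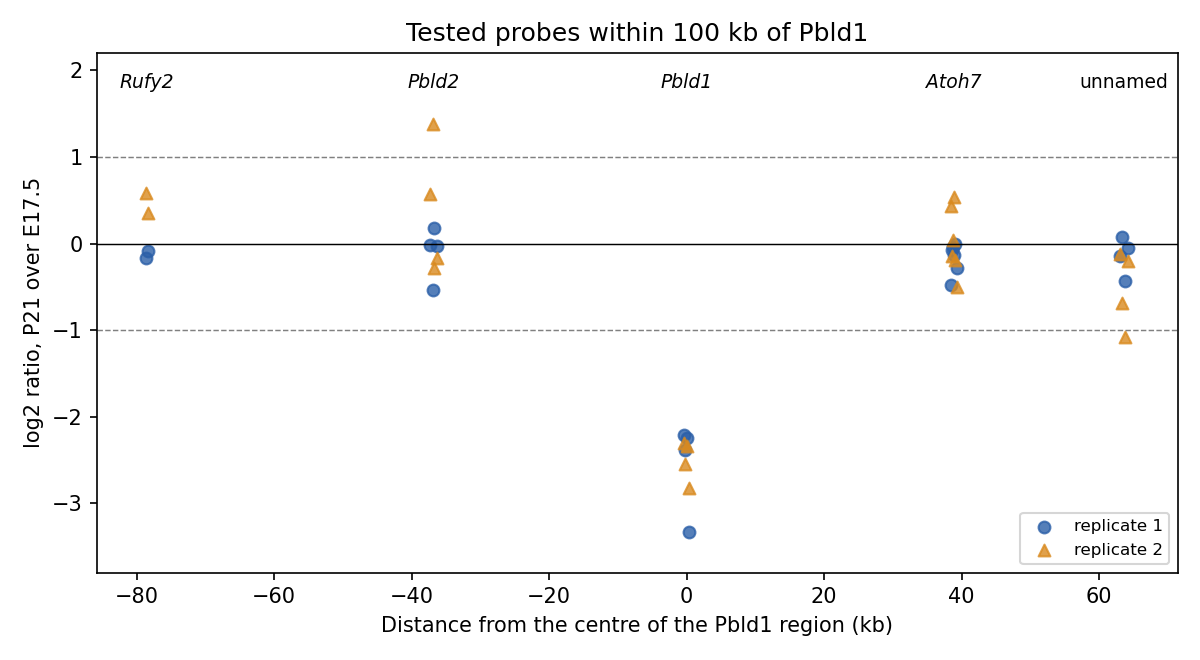
Log2 ratio of P21 over E17.5 at each tested probe within 100 kb of the Pbld1 region, by distance from its centre, for replicates 1 and 2; dashed lines mark 2-fold. The 8 Pbld1 points lie between -3.33 and -2.21, and the other probes scatter about 0, with 2 readings past 2-fold, both on replicate 2: a Pbld2 probe at 1.38 and an unnamed probe at -1.08.

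The regions with the most similar pair of ratios were sought among 6484 autosomal regions on the same array design with a gene name and at least 2 tested probes, by the Euclidean distance between the log2 ratios on the 2 arrays. With only 2 arrays this measures the size and direction of the ratio and no more. Vps25, a subunit of the endosomal sorting machinery on chromosome 11, was nearest at a distance of 1.13, with -1.84 and -1.62. Cstf2t, a factor of mRNA 3' end formation expressed in testis, followed on chromosome 19 at 1.25, with -1.85 and -1.46. Irf2bpl, named 6430527G18Rik on the array (chromosome 12), lay at 1.60, with -1.56 and -1.25. BC030396 on chromosome 15 lay at 1.62, with -1.88 and -1.02. Pld2, a phospholipase D on chromosome 11, lay at 1.67, with -1.47 and -1.23. None of the 5 was called by limma. Vps25 had 3.32-fold less signal at P21. With normexp the means of the 5 lay between -0.94 and -0.36. RefSeq promoter windows were found for 4 of the 5, and 3 of those, Cstf2t, Irf2bpl and Pld2, held CCCGGG in a window. Of all RefSeq windows 13.5% held it, but that share counts windows and not genes, and is not limited to genes on the arrays. The windows of these genes held 19 to 26 CpG, against a median of 7 over all windows. The share among arrayed genes was not measured, so no excess of the motif is read from these counts. Pld2 has 2 windows, of which 1 held none. No match in a window says only that these letters are not in it.

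**Figure D4:**
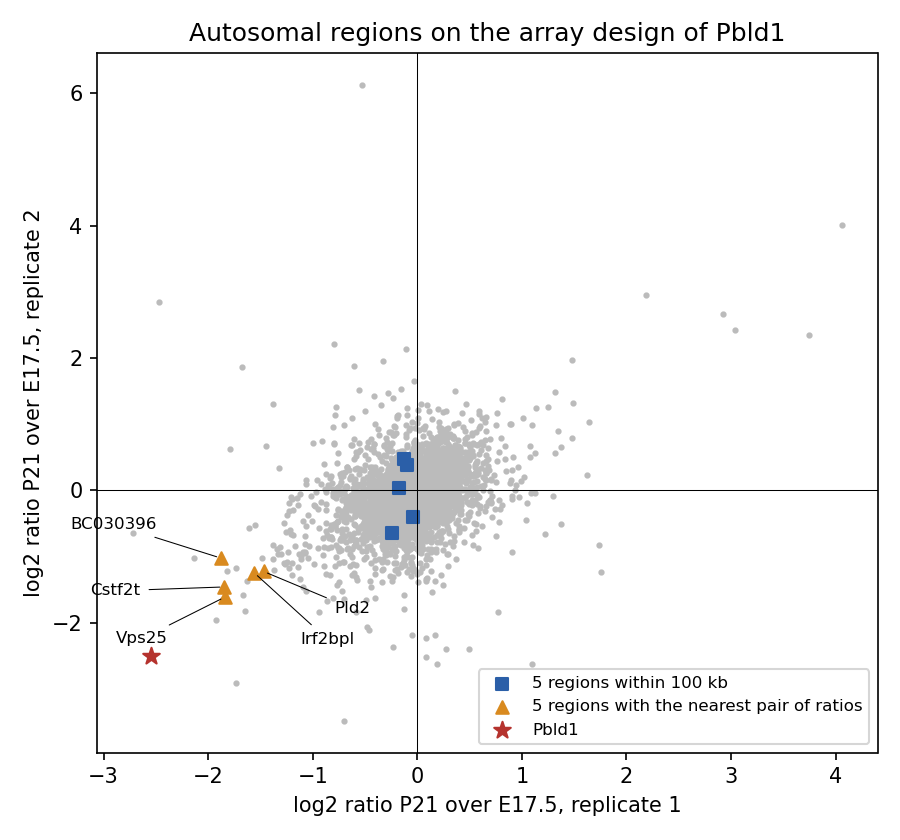
Log2 ratio of P21 over E17.5 on replicate 1 against replicate 2 for every autosomal region of the array design that carries Pbld1. Pbld1 (star) lies at -2.54 and -2.50, below the 5 named regions of at least 2 tested probes nearest to it, and its 5 neighbours within 100 kb lie near 0; grey points nearer to Pbld1 have no gene name or fewer tested probes.

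The TGF-beta pathway was examined because PBLD is described as acting on it. Of 40 listed genes 37 were measured, in 41 regions, of which limma called 0 (0% of all regions were called). At an unadjusted p under 0.05 there were 5, beside 11.8% of all regions. Lower at P21 on both arrays were 13 of the 41 and higher on both were 11, beside 32% and 32.1% of all regions. The list's median log2 ratio was -0.011, against -0.00037 over all regions, and it was above 0 with loess, with normexp and with the stricter filter, so it has no settled sign. Strap, the gene of the partner protein, stood at -0.13 and -0.20, a mean of -0.16 ± 0.05 over 4 probes (SD, n = 2; limma adjusted p = 0.473), and was below 0 under each scaling tried. The members with the largest ratios were Smad2, which carries the receptor signal, at -1.64 and -1.82 over 1 probe, and the co-receptor Eng, at 1.48 and 1.20 over 3 probes (limma adjusted p = 0.269 for both). With normexp they stood at -0.70 and 1.75. No other region of the list passed 2-fold on both arrays, where 0.295% of all regions were that much lower and 0.0965% that much higher.

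The rest of the arrays sets the scale for these values. On the pair that carries Pbld1, 70.6% and 67.0% of probes were well above background in E17.5 and 73.1% and 74.1% in P21, and the log2 ratios had an SD of 0.40 on replicate 1 and 0.60 on replicate 2. Marker genes of hepatocytes, fetal hepatoblasts, erythroid cells, other blood cells, endothelium and stellate cells were checked as loci only, since the assay reads DNA. Of 43 such genes 41 were measured, in 46 regions, and the medians of the 6 lists lay between -0.15 and 0.26. None of these regions was at least 2-fold lower at P21 on both arrays, and 1, the Eng region above, was at least 2-fold higher, beside 0.295% and 0.0965% of all regions. Higher and lower on both arrays, at any size, were 6 and 0 of 8 regions for other blood cells and 5 and 0 of 6 for endothelium. They were 1 and 5 of 8 for hepatocytes, 1 and 2 of 5 for hepatoblasts, 5 and 4 of 12 for erythroid cells, and 2 and 4 of 7 for stellate cells. Over all regions the shares were 32.1% and 32%. These values give no cell proportions, and the part of cell makeup in the Pbld1 ratio was not tested.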

How the data were processed

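DNA enriched for methylation was read on 4 two-colour Agilent arrays of 2 designs. Spot intensity came from the authors' use of Agilent Feature Extraction, version 9.1.1.1 for 1 array and 9.1.3.1 for the others, per the file headers; the submitters' processing notes name 9.1.1.1. The deposited processed intensity is background-subtracted and scaled by 1 linear dye factor per channel, per the file headers. The deposited log10 ratio, and the series table deposited with the same intensity values (linear, uncentred), served as alternatives. The labels put chromosome 10 on the first array design, while the probe names put it on the second.

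Here, log2 ratios of red (P21) over green (E17.5) were centred on each array's median. A probe was tested if no array flagged it as an outlier and each array had it well above background at one age or both, which held for 59516 probes. Probes at most 500 bp apart were joined into regions and averaged. limma 3.58.1 in R 4.3.3 (data.table package 1.17.8) tested all 17617 regions together, with Benjamini-Hochberg adjustment; a call needed an adjusted p under 0.05 and 2-fold in the same direction on both arrays. The fit was tested on simulated data. The array is a block by construction: deviations of its 2 channels correlated at 0.681. The p-values rest on replicates whose independence is given only as a label. Genes were named by rule: Pbld1, genes within 100 kb, Pbld2, the 5 regions nearest in ratio, the 2 list members with the largest ratios, and Strap. Members and lists were chosen with earlier results of these data known. Older symbols were updated through the RefSeq table for GRCm38.p6, and figures were drawn with matplotlib 3.10.9.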

Additional observations from a re-analysis of the deposited data

How the results depend on the processing

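The Pbld1 ratio stayed below 0 in all 18 alternatives, 7 of which moved it by less than its SD over the arrays. Most of those 7 could not have moved it further, so their number does not measure robustness. The series table, the deposited log10 ratio and the other gaps keep the same 4 probes and intensities. A single array always lies within the SD of 2 arrays. It was -1.57 with normexp, -2.19 with normexp and loess, -2.64 with loess on processed signals, -2.39 with no filter on dim probes, -2.34 with both channels above background or without the faint probe, and -2.38 as a median of probes. It was -1.22 (-1.13 for the 3 bright probes) with no dye factor and -1.002 with uncentred normexp; these 3 and the fit without the faint probe were added after the data were seen. Single arrays gave -2.54 to -2.50. Without the replicate block the Pbld1 ratio was -2.49 and limma called 0 regions.

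limma called 61 regions with normexp, 2 with normexp and loess, and 0 in the other 11 alternatives; with 1 array left out there is no test. Regions at least 2-fold lower on both arrays, 52 in all, numbered 4 with normexp, 15 with normexp and loess, 23 with no filter on dim probes, 33 and 163 with gaps of 1000 and 200 bp, 13 where the lower E17.5 signal had to exceed the higher P21 signal without the replicate block, and 121 to 311 on single arrays. None of the neighbouring regions passed 2-fold in any of 12 alternatives, on both arrays or, in the 2 that leave out a replicate, on the array left. With normexp, the farthest unnamed region and Rufy2 had limma adjusted p-values of 0.0366 and 0.0374, at -0.28 and -0.26. The 61 regions called with normexp also had to pass 2-fold, so that count is no background for these p-values. The TGF-beta list's median was 0.051 with normexp, 0.031 with normexp and loess, 0.018 with loess, -0.00017 uncentred, 0.0059 unfiltered, 0.033 with both channels above background, 0.0065 with a gap of 200 bp, 0.015 without the replicate block, and -0.025 to -0.011 on single arrays. The cause of these shifts was not tested. With 2 arrays and no dye swap, precision and the dye effect limit all values.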
